A study of Mus musculus with 4 samples.

Results

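The Hox genes are the 39 protein-coding genes whose symbols are Hoxa, Hoxb, Hoxc or Hoxd followed by a number. They were found by symbol among the 21995 protein-coding genes, of 54532 genes in all, and all 39 were listed in every file. The Hoxa cluster has 11 of them, Hoxb 10, Hoxc 9 and Hoxd 9. RNA from brain tissue of C57BL/6 mice had been sequenced as 4 libraries, 1 for each combination of age (young, old) and group (naive, tumor-bearing). Tumor-bearing mice had received 50000 GL261 cells, a transplantable C57BL/6 glioma line, in the brain, and tissue described as extra-tumoral was taken on day 21. Naive mice had not been engrafted, although their labels carry the same cell line tag. No treatment was given to any group. Young mice were 8 to 12 weeks old, and the range stated for the old mice is 8 to 90 weeks, so old is used as the label gives it. How many mice stand behind a library is not stated in the labels. With 1 library per group there was no replicate error and no test, and each statement below compares libraries.

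Hox genes encode homeodomain transcription factors that give cells of the embryo their position along the head-to-tail axis. Within a cluster the genes lie in order, so that low-numbered genes (paralog groups 1 to 3) are active from the hindbrain backwards and high-numbered genes (9 to 13) in the trunk, limbs and tail. The forebrain and midbrain form without them, and in the adult brain their transcripts are known mainly from the brainstem. Polycomb proteins keep the clusters silent where they are not used, retinoic acid and MLL proteins open them, and Pbx and Meis proteins of the TALE class bind DNA together with Hox proteins.

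Values are FPKM, fragments scaled to exon length and to the authors' depth divisor, and the reads recovered from them. Recovered fragments in genes numbered from 19572262 to 23267929 per library. Sets of 4 values are ordered young naive, young tumor-bearing, then old naive, old tumor-bearing. A gene was called detected above 3 reads, since a count of 0 still allows up to 3, or 0.147, 0.150, 0.192 and 0.129 FPKM for a gene of 1 kb. Intervals are exact 95% intervals of reads or of their ratio and cover counting error only, since reads are not independent molecules. For ratios of summed FPKM, the interval of the read ratio was rescaled to the FPKM ratio and is not exact.

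The promoters of 4 genes are shown because the results turn on them or on their contrast. Hoxd8 and Hoxa5 had the most reads of all members, Hoxb4 was the highest of its cluster, and Hoxd9, the next gene to Hoxd8, had no read in any library. Each line gives the 250 bases before the start of the gene from RefSeq (GRCm38.p6), 5′ to 3′ on the gene's strand. Capitals mark matches, on either strand, to TATAAA (the TATA box), CCAAT, TGATNNAT (a pairing of Pbx and Hox core letters), TAATTA (a homeobox core) or AGGTCA (a half-site of retinoid receptors). Hoxd8 lies at chr2:74704365-74704614 (+), Hoxa5 at chr6:52204588-52204837 (-), Hoxb4 at chr11:96318017-96318266 (+) and Hoxd9 at chr2:74697513-74697762 (+).
Hoxd8: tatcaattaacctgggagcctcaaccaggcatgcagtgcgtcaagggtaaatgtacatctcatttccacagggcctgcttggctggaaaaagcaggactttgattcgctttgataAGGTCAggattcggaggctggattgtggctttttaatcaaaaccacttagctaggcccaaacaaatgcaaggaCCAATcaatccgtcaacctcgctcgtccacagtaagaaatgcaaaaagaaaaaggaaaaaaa
Hoxa5: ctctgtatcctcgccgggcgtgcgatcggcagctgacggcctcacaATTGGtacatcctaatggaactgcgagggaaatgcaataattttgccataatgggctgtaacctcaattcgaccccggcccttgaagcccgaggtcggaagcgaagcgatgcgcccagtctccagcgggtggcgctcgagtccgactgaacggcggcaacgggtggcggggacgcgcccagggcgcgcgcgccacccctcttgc
Hoxb4: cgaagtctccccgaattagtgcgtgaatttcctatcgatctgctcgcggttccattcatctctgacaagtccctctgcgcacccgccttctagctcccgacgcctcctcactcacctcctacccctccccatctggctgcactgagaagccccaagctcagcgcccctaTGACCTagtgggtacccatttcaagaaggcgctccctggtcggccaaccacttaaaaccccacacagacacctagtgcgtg
Hoxd9: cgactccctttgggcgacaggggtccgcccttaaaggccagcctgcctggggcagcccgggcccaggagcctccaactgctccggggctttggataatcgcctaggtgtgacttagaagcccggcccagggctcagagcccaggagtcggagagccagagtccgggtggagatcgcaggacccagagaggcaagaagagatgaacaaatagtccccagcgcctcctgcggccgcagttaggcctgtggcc
Hoxd8 held 1 CCAAT and 1 AGGTCA match, Hoxa5 1 CCAAT match, Hoxb4 1 AGGTCA match, and Hoxd9 held no match to any of the 5. RefSeq windows were found for 22 of the 39 members (24 windows). CCAAT stood in 14 of these 24 (58.3%) against 33.8% of all 32851 windows of this length, AGGTCA in 6 (25.0%) against 14.0%, TATAAA in 4 (16.7%) against 12.4%, TGATNNAT in 4 (16.7%) against 7.68% and TAATTA in 2 (8.33%) against 4.84%. Matches of different motifs overlapped in 0 of the 24 windows. The median GC content was 58.6% for Hox windows and 52.4% for all. A match is a run of letters and does not show that a protein binds there.

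Across the series the Hox genes were near 0 in 3 libraries and present in the old tumor-bearing one. All members together had 17 reads (interval 9.90 to 27.2) in young naive and 31 (21.1 to 44.0) in young tumor-bearing tissue. The old libraries had 3 (0.619 to 8.77) without and 674 (624 to 727) with tumor. Their summed level was 0.309, 0.613, 0.103 and 12.7 FPKM in the same order. The number detected was 1, 3, 0 and 11 of the 39 genes. Over all protein-coding genes the detected share was 71.6%, 73.3%, 70.3% and 73.5%, so the members were detected far less often than genes in general in every library, the old tumor-bearing one included. At least 1 read was seen for 11, 6, 1 and 17 members, and 1 FPKM was reached by 0, 0, 0 and 4 members beside 56.1%, 57.8%, 56.1% and 57.4% of protein-coding genes. In tissue RNA, more cells of a type and more RNA per cell cannot be told apart, and this holds for every level given here.

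**Figure D1:**
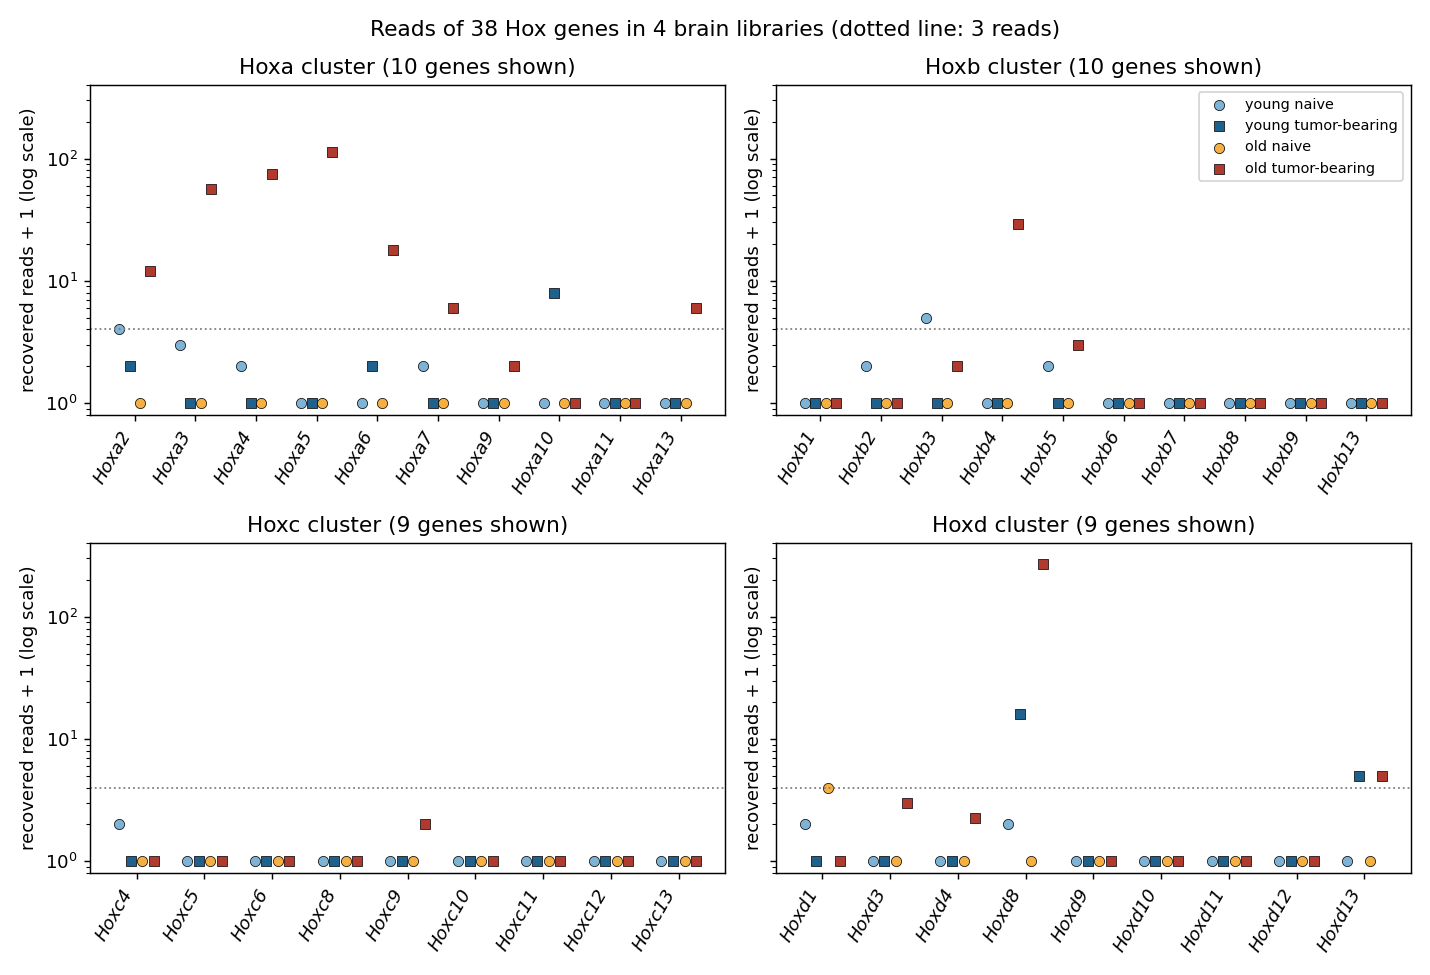
Recovered reads + 1 on a log axis for 38 Hox genes, 1 panel per cluster, with 1 point per library (circles naive, squares tumor-bearing) and a dotted line at 3 reads. The old tumor-bearing points of Hoxa2 to Hoxa6, Hoxb4 and Hoxd8, with 11 to 271 reads, stand above the other 3 points of the same gene, while the Hoxc panel stays at 0 or 1 read.

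Of the 39 members 8 reached 10 reads in a library, 5 had 4 to 9 reads at most, 8 had 1 to 3 and 18 had none anywhere. The 18 genes without a read were Hoxa11, Hoxb1, Hoxb6, Hoxb7, Hoxb8, Hoxb9, Hoxb13, Hoxc5, Hoxc6, Hoxc8, Hoxc10, Hoxc11, Hoxc12, Hoxc13, Hoxd9, Hoxd10, Hoxd11 and Hoxd12. For them a count of 0 allows levels of up to 0.0306 to 0.186 FPKM, depending on gene length and library. In the old tumor-bearing library Hoxd8 held 40.2% of all Hox reads, and Hoxd8 and Hoxa5 together held 57.0%.

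In the Hoxa cluster (mm10 chromosome 6), a run of neighbours from Hoxa2 to Hoxa7 was detected in the old tumor-bearing library, 364 reads of the whole cluster against 0 in the old naive library. The young naive library had 8 and the young tumor-bearing library 12 reads in the cluster. Hoxa2, which sets the identity of the hyoid arch and anterior hindbrain, had 3, 1, 0 and 11 reads (0.0827, 0.0282, 0 and 0.267 FPKM), so the old tumor-bearing library was the high one and the other 3 lay at or under the limit of 3 reads. Hoxa3, needed for the thymus and parathyroid, had 2, 0, 0 and 55 reads (0.0163, 0, 0 and 0.393 FPKM).

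Among the middle genes of the cluster, Hoxa5, which acts in the neck, lung and cervical spinal cord, had 0 reads in both young libraries and in the old naive one and 113 reads in the old tumor-bearing library (2.59 FPKM). Hoxa4, which shapes the cervical vertebrae, had 1, 0, 0 and 74 reads (0.0307, 0, 0 and 2.0 FPKM). Hoxa6, a gene of the thoracic levels, had 0, 1, 0 and 17 reads (0, 0.0572, 0 and 0.836 FPKM). These 3 genes therefore shared a pattern, with a single library above 1 read. Hoxa7 closed the run with 1, 0, 0 and 5 reads (0.0748 FPKM in the old tumor-bearing library).

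Beyond Hoxa7 the cluster was almost empty. Hoxa9, a leukemia-associated gene of blood progenitors, had 1 read in the old tumor-bearing library and 0 in the others, and Hoxa11 had none. Hoxa10, which acts in the trunk, uterus and blood progenitors, had 7 reads in the young tumor-bearing library (0.107 FPKM) and 0 in the other 3, so it was seen in that library alone. Hoxa13, a gene of the limb tips and the urogenital tract, had 5 reads in the old tumor-bearing library (0.0870 FPKM) and 0 elsewhere.

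**Figure D2:**
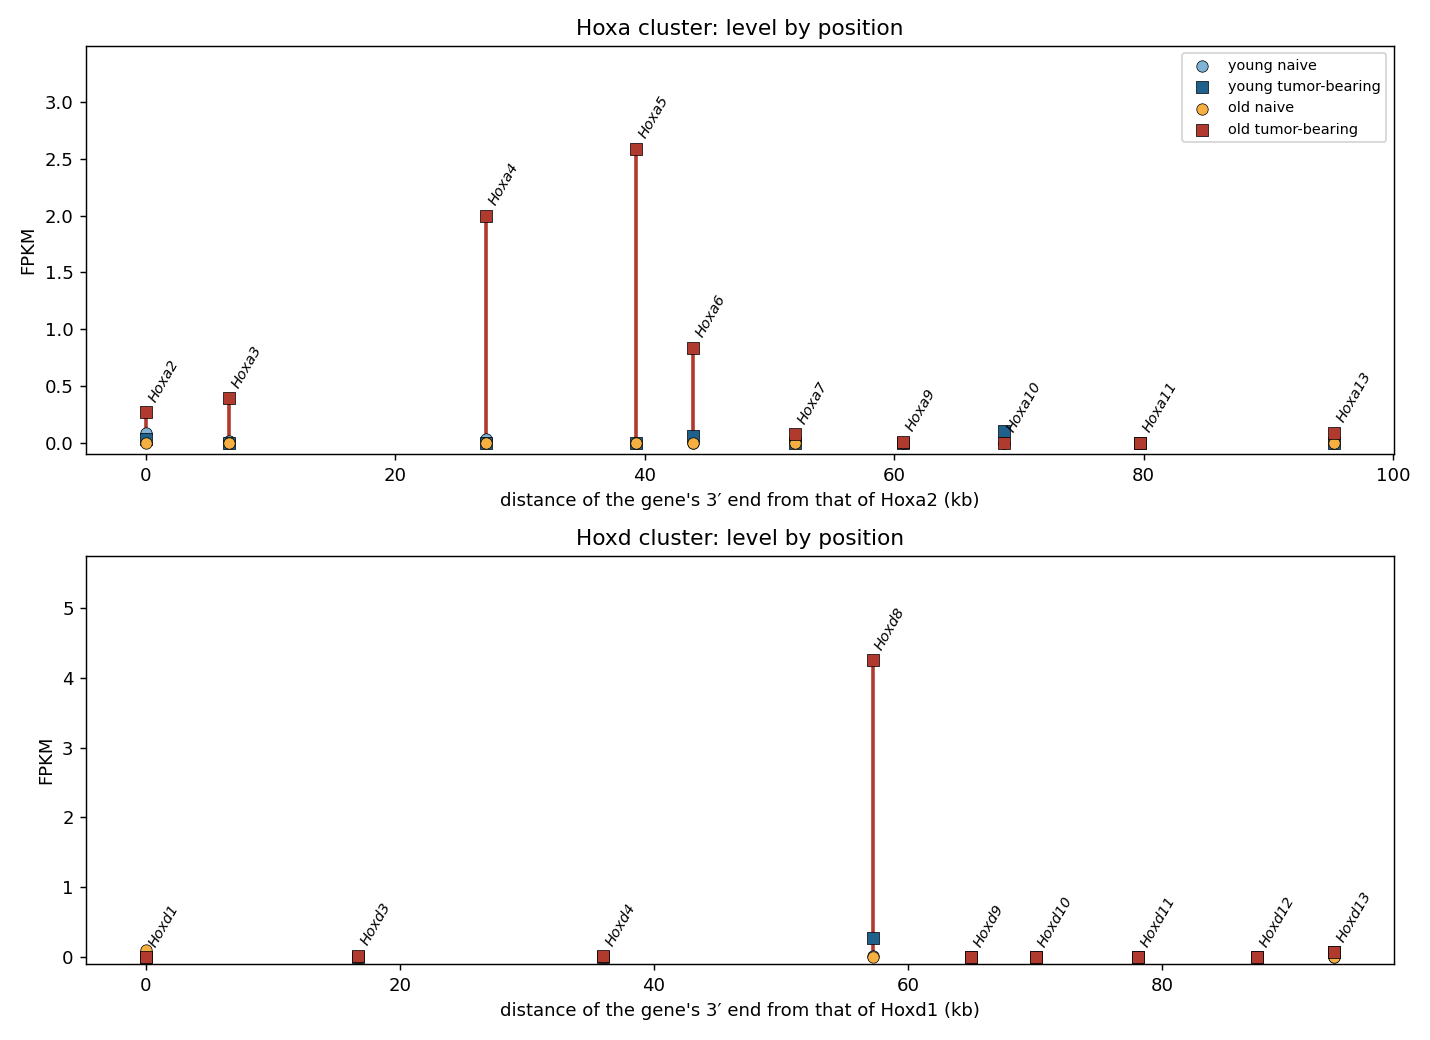
FPKM of the genes of the Hoxa (top) and Hoxd (bottom) clusters by the distance of each gene's 3′ end from that of Hoxa2 or Hoxd1, in kb, with 1 point per library and a line up to the old tumor-bearing value. In Hoxa the old tumor-bearing level runs from 0.267 FPKM at Hoxa2 through 2.59 at Hoxa5 to 0.0748 at Hoxa7, and in Hoxd it stands at 4.25 FPKM at Hoxd8 with near 0 on both sides.

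The Hoxd cluster (mm10 chromosome 2, 74668310 to 74765142) had 2, 19, 3 and 278 reads. Hoxd8, a gene of the trunk (ENSMUSG00000027102, mm10 chromosome 2, 74704615 to 74707933), was the highest member of the family, with 1, 15, 0 and 271 reads. The levels were 0.0178, 0.273, 0 and 4.25 FPKM, so both tumor-bearing libraries were above both naive ones, and the old one was the higher. Among protein-coding genes its level ranked at the 61.3 percentile in the old tumor-bearing library, Hoxa5 at the 53.2 and Hoxa4 at the 49.7. Hoxd9, which adjoins it and whose promoter is shown above, had 0 reads in all 4. Hoxd13, the limb and digit gene at the far end, had 4 reads in each tumor-bearing library (0.0805 and 0.0693 FPKM) and 0 in each naive one, and Hoxd1 had 1, 0, 3 and 0 reads.

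Hoxd3 and Hoxd4 were near 0, and their counts are uncertain. Hoxd3 had 2 reads in the old tumor-bearing library and 0 elsewhere, and Hoxd4 was listed at 0 in 3 libraries and at 0.0185 FPKM in the old tumor-bearing one, a value that gave no whole number of reads. By the annotation 62.8% of the exon bases of Hoxd3 and 52.3% of those of Hoxd4 are shared with other genes. One of these is Gm28230, a gene model on the same strand, which had 11 reads in the old tumor-bearing library and 0 in the others. The rule for reads over shared bases was not found in the labels or headers.

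The Hoxb cluster (mm10 chromosome 11, 96194316 to 96368256) had 6, 0, 0 and 31 reads. Hoxb4, known for expanding blood stem cells, had 28 of the 31 in the old tumor-bearing library (0.469 FPKM) and 0 in the other 3. Hoxb3, a hindbrain gene, was the one member detected in young naive tissue, with 4, 0, 0 and 1 reads, and 52.9% of its exon bases lie opposite Hoxb3os. Hoxb3os had 3, 0, 0 and 0 reads, and whether the same fragments were counted for both genes was not tested. Hoxb2 had 1 read in the young naive library, and Hoxb5 had 1, 0, 0 and 2 reads. In the Hoxc cluster (mm10 chromosome 15, 102921103 to 103036852), 1 read of Hoxc4 in the young naive and 1 of Hoxc9 in the old tumor-bearing library were all that was found.

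By place along the axis, paralog groups 1 to 3 (8 genes) had 12, 4, 3 and 152 reads, groups 4 to 8 (15 genes) 5, 16, 0 and 511 reads, and groups 9 to 13 (16 genes) 0, 11, 0 and 11 reads. In the old tumor-bearing library the middle groups thus held 75.8% of the Hox reads, the first 22.5% and the last 1.63%. The young naive library had its few reads in the first groups (70.6%) and the middle ones (29.4%). The reads of groups 9 to 13 in the young tumor-bearing library were the 7 of Hoxa10 and the 4 of Hoxd13.

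The comparisons between libraries took protein-coding genes with at least 10 reads in 1 of the 2 libraries. They used the log2 ratio of FPKM + 0.1, a scale that can shrink differences of low genes. Against 0 reads it can also exceed the bound set by 3 reads. The Hox median in the old tumor comparison was 3.65 on this scale and 2.54 with 3 reads for each 0. Other scalings of the libraries shifted the median of all genes by up to 0.55 in the old tumor comparison, and the count of 8 Hox genes given below was 8 under each. That count could hardly fall, since the shifts were upward and the lowest ratio of the 8 was 1.87. In young tumor-bearing against young naive tissue 1 member could be measured, Hoxd8, and it was 15.3-fold higher (2.36 to 646), with a log2 ratio of 1.66. At least 2-fold higher were 4.43% of the 15387 protein-coding genes measured, and 0.728% were lower. Hoxa10 lay below that minimum. With 7 reads against 0 it was at least 2.39-fold higher in FPKM (the interval reaches down to 1.47), taking 3 reads for the 0. The summed level of all members was 1.98-fold higher (1.06 to 3.82), and 1.17-fold without Hoxd8, which had 15 of the 31 reads. That interval is rescaled from the read ratio, so its lower end, just above 1, carries no weight.

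Between the old libraries, tumor-bearing over naive, 8 members were measured, and all 8 were at least 2-fold higher, beside 20.1% of 15622 protein-coding genes higher and 28.7% lower. None of the 8 had a read in the old naive library, so each was measured only because it was high in the tumor-bearing one, and neither the count of 8 of 8 nor the size of their ratios as a group carries weight of its own. Against 3 reads in the old naive library, Hoxd8 was at least 60.8-fold higher, Hoxa5 at least 25.3-fold and Hoxa4 at least 16.6-fold. The same bound was 12.3-fold for Hoxa3, 6.28-fold for Hoxb4, 3.81-fold for Hoxa6 and 2.47-fold for Hoxa2. These bounds take the tumor-bearing reads without counting error, with which the lower ends are 49.1-fold for Hoxd8, 20.3-fold for Hoxa5 and 1.69-fold for Hoxa2. The summed level was 124-fold higher (42.1 to 600), and 82.3-fold without Hoxd8. Its denominator is the 3 reads of Hoxd1, a gene with 0 reads in the old tumor-bearing library, and without Hoxd1 no ratio can be formed.

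In old against young naive tissue no member reached 10 reads in either library, and none was compared singly. The background there was 3.89% higher and 4.47% lower of 15085 genes. The summed reads were 3 (0.619 to 8.77) against 17 (9.90 to 27.2), with depth divisors of 15646445 and 20445811 fragments. The ratio of summed FPKM was 0.333. Its interval, 0.0626 to 1.15, is rescaled from the read ratio and does not settle whether the libraries differ. All 3 reads of the old naive library were of Hoxd1, without which its sum is 0.

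In old against young tumor-bearing tissue the same 8 genes were measured and were at least 2-fold higher, beside 17.6% higher and 27.8% lower of 15824 genes. This comparison shares the old tumor-bearing library with the one above, and its values are not a second support for it. Hoxd8 was 15.5-fold higher (9.25 to 28.1), Hoxa6 14.6-fold (2.29 to 611) and Hoxa2 9.46-fold (1.38 to 407). Against 3 reads in the young tumor-bearing library, Hoxa5 was at least 32.4-fold higher, Hoxa4 at least 21.2-fold, Hoxa3 at least 15.8-fold and Hoxb4 at least 8.03-fold. Hoxa10 went the other way, with 7 and 0 reads, and Hoxd13 had 4 reads in both. The age by tumor difference, the old log2 ratio minus the young one, was 2.38 for Hoxa2 at the lowest and 4.78 for Hoxa4 at the highest. These 8 were measured through their reads in the old tumor-bearing library, so a value above 0 was set by that choice. The sizes also rest on the added 0.1, since the 8 had 0 reads in the old naive library and at most 3 in the young naive one.

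Reads over overlapping genes bear on some of these values, and the labels describe both a strand-marking and an unmarked library preparation. No exon base is shared with another annotated gene in 23 of the 39 members. Among the 8 measured genes this holds for Hoxa5, Hoxa6, Hoxb4 and Hoxd8, which had 63.6% of all Hox reads in the old tumor-bearing library. Hoxa4 shares 16.0% and Hoxa3 25.4% of its exon bases with genes on the opposite strand. Hoxa3 also shares 8.01% with Gm28308 on its own strand, which makes 27.1% in all. The opposite-strand genes had reads in the old tumor-bearing library, 25 for Hoxaas3, 14 for 5730596B20Rik and 5 each for Hoxaas2 and Gm29430. Of these, Hoxa4 overlaps Gm29430 and Hoxa3 overlaps each. Hoxa2 shares 15% with Gm28308 on its own strand, which had 0 reads in all 4 libraries.

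Of the 43 genes within the clusters that are not annotated as protein-coding, 0, 0, 0 and 5 had 10 reads or more. The 5 are 11.6% of the 43, near the share of all 32537 such genes, which was 9.85%, 10.8%, 8.93% and 10%. Hotairm1, a long noncoding RNA of the Hoxa cluster known from myeloid cells, had 5, 5, 0 and 39 reads (1.64 FPKM in the old tumor-bearing library). Hoxaas3, antisense to the middle of the Hoxa cluster, had 0, 0, 0 and 25 reads, and Gm27861, a short annotated RNA, 0, 0, 0 and 14. In the Hoxd cluster, Hoxd3os1 had 0, 0, 0 and 17 reads and Haglr 5, 1, 6 and 15. Hotair, the noncoding RNA of the Hoxc cluster, had 0 reads in all 4 libraries.

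The genes that border the clusters did not share one pattern. Evx1, the homeobox gene beyond Hoxa13, had 9, 2, 0 and 0 reads, and Evx2, which lies 8.75 kb beyond Hoxd13, had 21, 14, 1 and 2, so both were low in the old libraries. Skap2, beside the Hoxa cluster, was at 1.69, 1.69, 1.63 and 5.55 FPKM, and Mtx2, 60.7 kb beyond Hoxd1, at 7.59, 7.31, 7.83 and 14.0 FPKM, higher in the old tumor-bearing library. On the Hoxb side Skap1 was at 0.144, 0.161, 0.206 and 0.196 FPKM, and beyond Hoxc4 Smug1 was at 2.75, 3.10, 3.77 and 2.95 FPKM. ParaHox genes, relatives outside the clusters, were low too, with Cdx2, Cdx4 and Pdx1 listed at 0 in every library.

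Cofactors and regulators of Hox genes were measured in all libraries, and their counts in the old tumor comparison stand beside 20.1% of all genes higher and 28.7% lower. Of the 9 TALE genes, 0 were 2-fold apart in the young tumor comparison, and 1 was higher (11.1%) and 4 were lower (44.4%) in the old one (median -0.90, from -0.90 to -0.34 over 4 scalings of the libraries). Meis1, a cofactor in blood progenitors and brain, was at 1.64, 1.78, 0.358 and 1.39 FPKM, low in the old naive library. Meis2, a gene of striatal and other neurons, was at 8.85, 6.94, 15.1 and 2.45 FPKM and Pknox2 at 5.16, 6.52, 10.9 and 1.39 FPKM, each lowest in the old tumor-bearing library. Their summed level was 61.4, 59.9, 82.7 and 39 FPKM, the reverse of the Hox order in the old pair.

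Of 23 Polycomb genes, 0 were 2-fold apart in the young tumor comparison, and 4 were higher (17.4%) and 4 lower (17.4%) in the old one, both below the share of all genes. The median was -0.23 on the deposited scale and up to 0.33 under other scalings, so it has no fixed direction, and the counts ranged from 4 to 8 higher and from 0 to 4 lower. Phf19, a subunit that brings PRC2 to chromatin, was at 0.330, 0.337, 0.317 and 8.76 FPKM, and Ezh2, its methyltransferase and a gene of dividing cells, at 1.03, 2.09, 0.632 and 12.8 FPKM. Cbx2 was at 0.724, 0.775, 0.751 and 2.07 FPKM. In the other direction Cbx7, the chromobox protein of resting cells, was at 13.5, 15.1, 18.3 and 6.93 FPKM, and Cbx6 at 42.6, 44.8, 57.5 and 20.7 FPKM.

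Of 15 trithorax, MLL and demethylase genes, 0 were 2-fold apart in the young tumor comparison, and in the old one 3 were higher (20%), about the share of all genes, and 1 was lower (6.67%; median -0.35, up to 0.22 under other scalings). Mllt3, a subunit of the super elongation complex, was at 4.02, 3.38, 2.75 and 9.43 FPKM, and Aff1, another, at 3.28, 4.90, 3.55 and 11.3 FPKM. Kdm6b, a demethylase that removes the Polycomb mark, was at 5.31, 7.33, 6.00 and 13.1 FPKM. Men1, which tethers MLL, was at 15.8, 17.5, 21.0 and 6.74 FPKM, and Kmt2a, the MLL gene itself, at 11.5, 15.8, 14.6 and 9.54 FPKM.

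The retinoic acid list had 15 of 17 members measured, 0 of them 2-fold apart in the young tumor comparison and, in the old one, 1 higher (6.67%) and 4 lower (26.7%, near the share of all genes; median -0.39, up to 0.16 under other scalings). Rara, a retinoic acid receptor, was at 3.53, 3.07, 3.60 and 10.3 FPKM. The receptors Rarb, at 1.48, 1.37, 2.17 and 0.221 FPKM, and Rxrg, at 9.05, 7.16, 13.8 and 1.93 FPKM, were lowest in the old tumor-bearing library. Aldh1a2, an enzyme that makes retinoic acid, was at 3.61, 6.23, 3.67 and 5.09 FPKM.

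**Figure D3:**
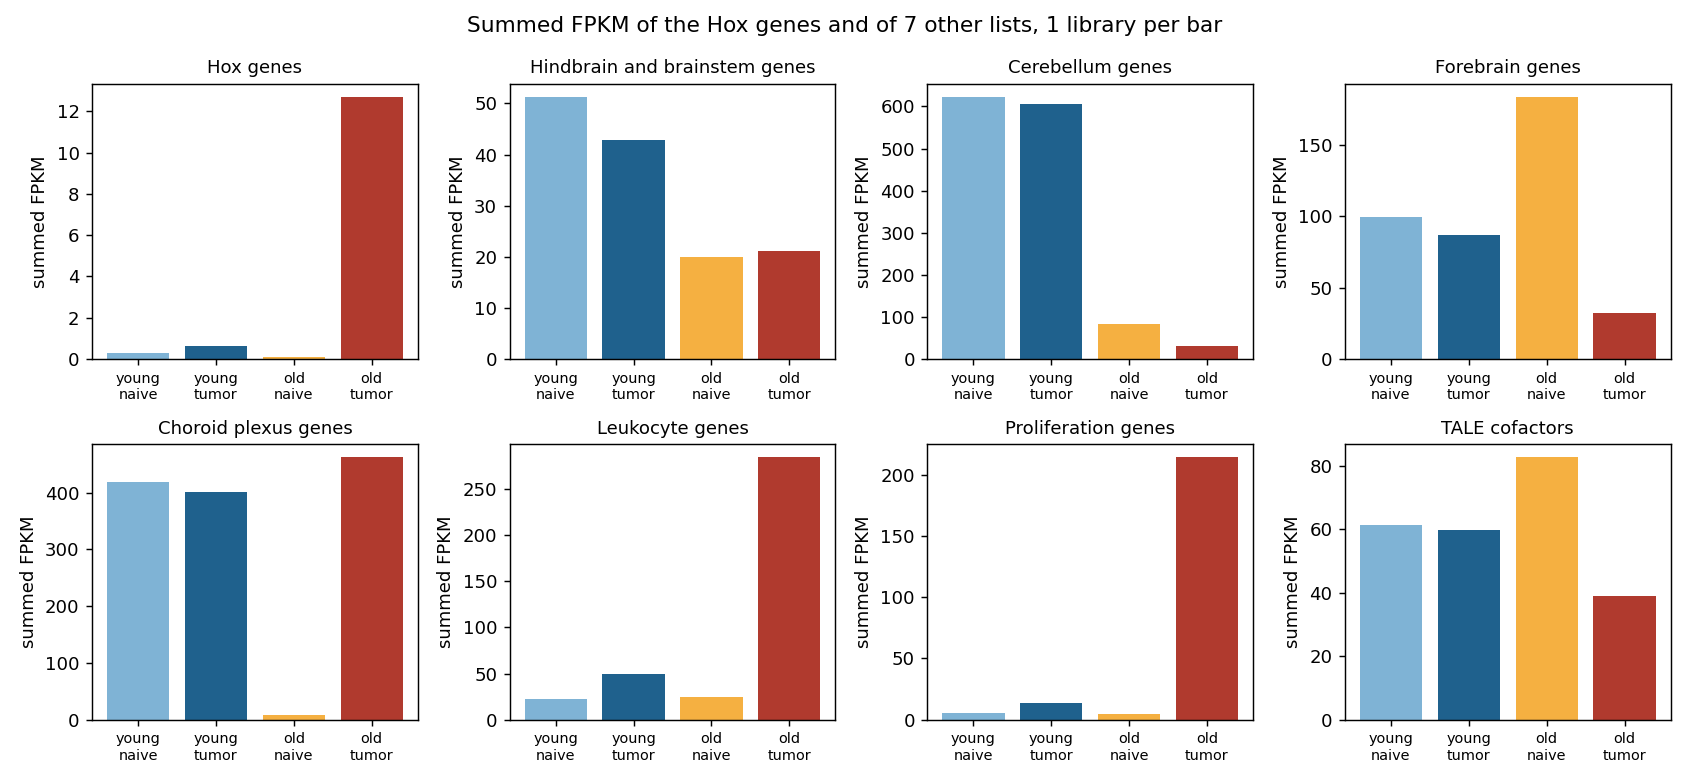
Summed FPKM of the 39 Hox genes and of 7 other gene lists, 1 bar per library, each panel with its own axis from 0. Hox genes stand at 0.309, 0.613, 0.103 and 12.7 FPKM, while the hindbrain and brainstem list stands at 51.3, 42.8, 19.9 and 21.1 FPKM and the proliferation list at 5.26, 13.7, 4.40 and 214 FPKM.

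Region lists differed between libraries, each in its own way. The hindbrain and brainstem list summed to 51.3, 42.8, 19.9 and 21.1 FPKM, so it was lower in both old libraries than in both young ones. The list is not limited to places where Hox genes are active. Its highest member in both young libraries was En2, given next. Tlx3, a brainstem transcription factor, was at 1.75, 1.04, 0 and 0.0281 FPKM, and En2, of midbrain and cerebellum, at 14.2, 13.7, 0.397 and 0.207 FPKM. Tph2, of serotonin neurons, was an exception, at 6.88, 2.57, 0.355 and 2.33 FPKM. Atoh1 and Ptf1a were listed at 0 in all 4, and En1, Lbx1 and Slc6a5 at 0 in the old tumor-bearing library. In old tumor-bearing against young tumor-bearing tissue 11 of 16 measured members of the list were at least 2-fold lower and 0 higher, beside 27.8% lower and 17.6% higher of all genes.

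The other region lists differed between the old and young libraries as well. The cerebellum list summed to 623, 606, 82.9 and 30.3 FPKM, and Gabra6, of cerebellar granule cells, was at 81.5, 65.7, 0.0770 and 0 FPKM. The forebrain list summed to 99.3, 87.1, 184 and 32.4 FPKM and the neuron list to 1200, 1070, 1560 and 317 FPKM. Choroid plexus genes summed to 418, 402, 7.90 and 462 FPKM, with the old naive library the low one. The cerebellar values set both old libraries apart from the young ones. The choroid plexus values set the old naive library apart from all the others, the old tumor-bearing one included. The part of tissue content in the Hox values was not tested.

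**Figure D4:**
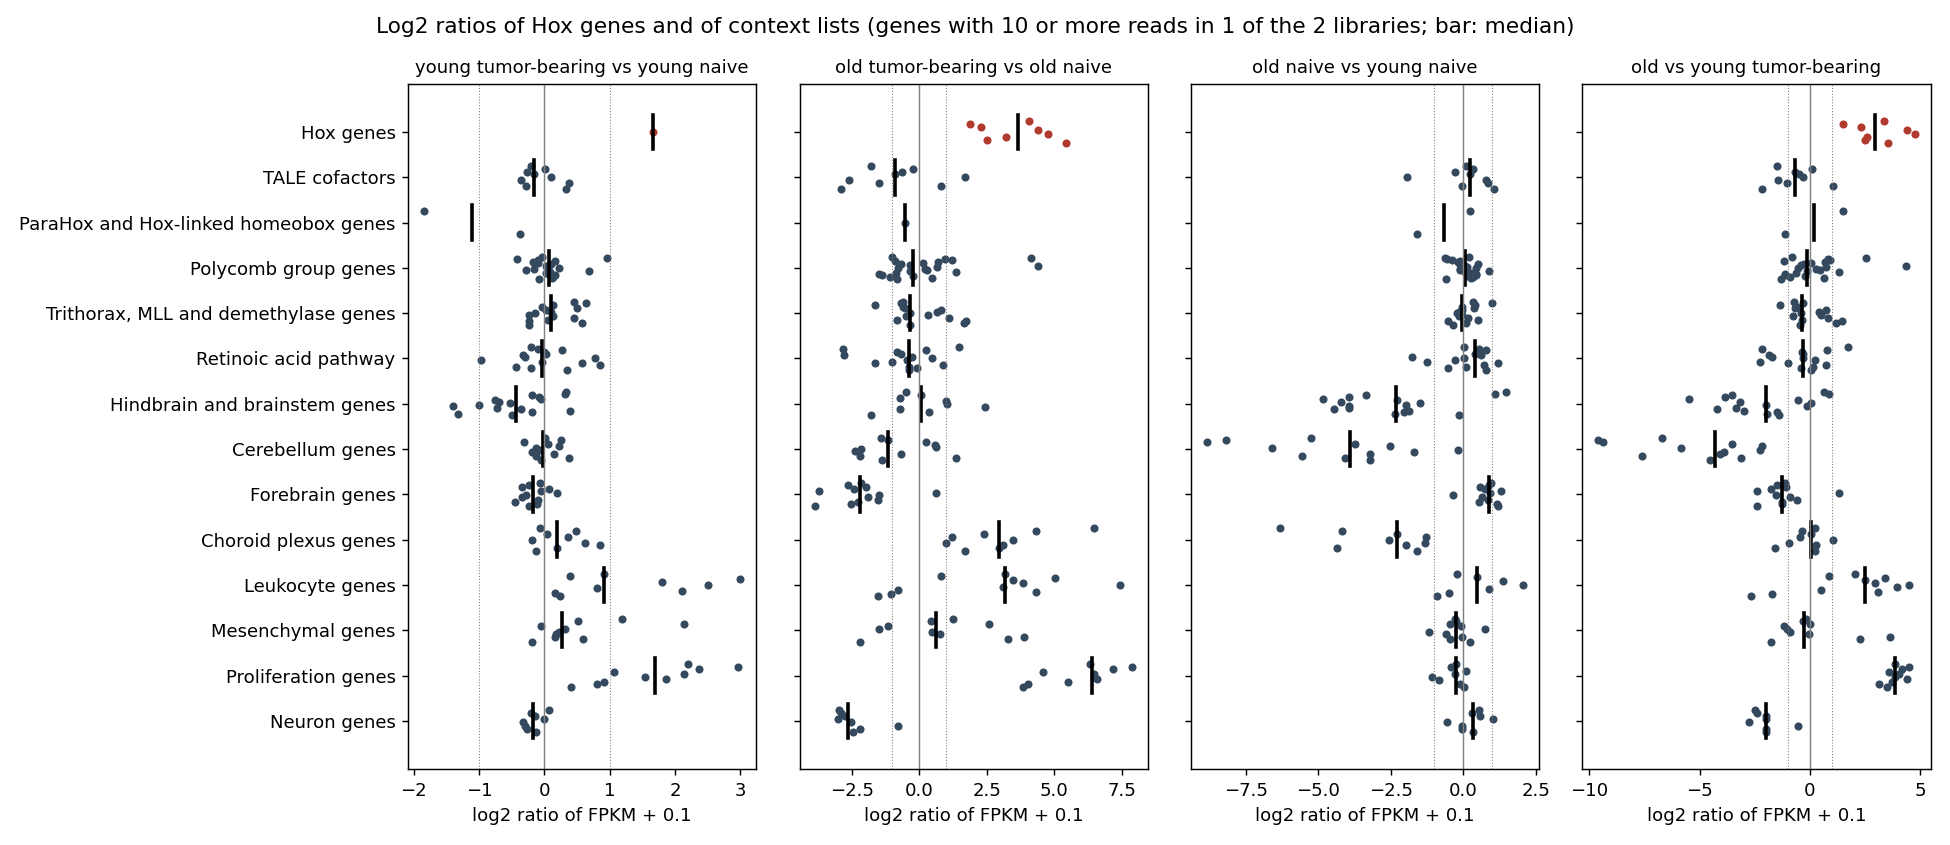
Log2 ratios of FPKM + 0.1 for measured Hox genes (red) and for members of 13 other lists (dark), 1 panel per comparison, each with its own axis, with a bar at the list's median and dotted lines at 2-fold. In the old tumor comparison the 8 Hox genes lie between 1.87 and 5.44, and the proliferation list has a median of 6.40.

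The proliferation and leukocyte lists had their highest sums in the old tumor-bearing library. All 10 proliferation genes were at least 2-fold higher there than in old naive tissue (median 6.40), and their sum was 5.26, 13.7, 4.40 and 214 FPKM. Mki67, a marker of cycling cells, was at 0.180, 1.19, 0.133 and 18.8 FPKM, the same order of libraries as the summed Hox level. The leukocyte list, with 7 of 11 measured members higher and 2 lower, summed to 22.5, 49.3, 24.6 and 284 FPKM. Lyz2, of macrophages and other myeloid cells, was at 6.47, 28.2, 12.1 and 244 FPKM, and Gzmb, of cytotoxic lymphocytes, at 0.0341, 0.662, 0 and 17.2 FPKM. Ptprc, the gene of the leukocyte antigen CD45, was at 0.264, 0.587, 0.216 and 2.75 FPKM, and Itgax, of dendritic and other myeloid cells, at 0, 0.697, 0.160 and 8.39 FPKM, so these 4 were high in the same library as the Hox genes. Flt3 and Kit, which mark blood progenitors but are also made by neurons, were lowest in the old tumor-bearing library, at 1.07 and 1.89 FPKM. Of the neutrophil genes, Ly6g had 2, 0, 0 and 0 reads and S100a8 7, 13, 26 and 22 reads, so neither was highest there.

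The mesenchymal list went both ways, with 4 of 10 members higher and 3 lower in the old tumor comparison (20.1% and 28.7% of all genes), and its sum, 228, 213, 262 and 92.2 FPKM, was led by Thy1, which neurons also express. Twist1 and Prrx1, transcription factors of mesenchyme and of mesenchymal glioma cells, were at 12.4 and 7.17 FPKM in the old tumor-bearing library and between 0.635 and 1.41 FPKM in the others. Col1a1 was at 2.22, 5.19, 1.82 and 4.55 FPKM, close together in the tumor-bearing libraries. The part of these cell types and of GL261 cells in the Hox values was not tested, and with 1 library per group age, tumor and the library itself cannot be told apart.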

How the data were processed

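Poly-A RNA of brain tissue was sequenced as paired-end libraries, 1 per group. Values are FPKM, 1 per gene and library, as the authors deposited them (per the file headers). The submitters' processing notes name HISAT2 and mm10. How reads were counted, and on which gene models, is not given in the sources used here. GENCODE M21 supplied symbols, types, lengths and positions (GRCm38, the assembly of mm10), which named 54495 of 54532 genes.

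Reads were recovered as FPKM times summed exon length times the depth divisor (15646445 to 23253750 fragments), which came out whole for 31928 of 32867 genes above 0 (97.1%, within 0.03 reads or 2e-05 of the value) and for 38 of the 39 Hox genes. The recovery was tested on simulated data made with the same exon lengths, so that test does not bear on which gene models or counting rule the authors used. Since the unit was FPKM with 1 library per group, no count test was run. Log2 ratios used FPKM + 0.1 for protein-coding genes with at least 10 reads in 1 of the libraries. Where 1 library had 0 reads, the fold is a lower bound computed with 3 reads there.

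The members, the 13 other lists, the thresholds and the alternatives were chosen with earlier results of these data known. All Hox genes enter the counts and sums, and those with 10 reads or more in a library are given with values in all 4, except that a few genes are not reported here by name. Of each other list at most 5 members with large log2 ratios were to be named, and further list members, the noncoding and bordering genes and the 4 promoters were chosen after their values were seen. Alternatives were the detection threshold, the added constant (0.01 or 1), the filter on low values, the scaling and leaving out the highest member. Python 3.11.15, pandas 2.3.3, numpy 2.4.6 and scipy 1.17.1 were used.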

Additional observations from a re-analysis of the deposited data

How the results depend on the processing

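The 8 genes higher in the old tumor comparison, the 8 higher in old against young tumor-bearing tissue and the 1 higher in the young tumor comparison stayed the same in number under median-of-ratios scaling, under scaling by fragments in genes and with 0.01 added. Scaling to equal FPKM totals, added after the data were seen and run for the comparisons with the old tumor-bearing library, left them at 8 as well. The counts of 8 could hardly fall under these settings. All 8 genes had 0 reads in the old naive library and passed the filter through the old tumor-bearing one. Each scaling moved the median of all genes upward, by up to 0.55 in the old tumor comparison, where the ratios of the 8 began at 1.87. With 1 added, or with a minimum of 1 FPKM, the counts were 4, 4 and 0, and the age by tumor count fell from 8 to 4, because the low members then drop out. With the main settings 2980 of 16015 protein-coding genes (18.6%) were higher by the age by tumor difference and 4567 were lower. Without a filter the young count was 2, with Hoxa10 added. Without a filter 1 member was lower in the old tumor comparison and 1 between the tumor-bearing libraries, where the counts had been 0. The ratio of summed FPKM in old against young naive tissue was 0 without Hoxd1. For old tumor-bearing over old naive tissue it was 124 as deposited and 155, 184 and 167 under the 3 scalings, and over young tumor-bearing tissue 20.8 as deposited and 26.2, 27.0 and 23.0.

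Detection depended on its threshold. In the order used above, 1, 3, 0 and 11 members had more than 3 reads, 11, 6, 1 and 17 had at least 1 read, 0, 1, 0 and 8 had 10 reads, 0, 2, 1 and 8 reached 0.1 FPKM and 0, 0, 0 and 4 reached 1 FPKM. The same scalings moved the median log2 ratio of all protein-coding genes in the old tumor comparison by 0.31, 0.55 and 0.41. The split of genes at least 2-fold higher and lower was 3142 and 4482 as deposited and 3930 and 3444, 4719 and 2790, and 4223 and 3136 in that order. In old against young tumor-bearing tissue it was 2790 and 4403, then 3654 and 3181, 3789 and 3054, and 3147 and 3862. In old against young naive tissue it was 587 and 674, then 564 and 671, 401 and 799, and 319 and 935. No paired analysis was possible because each group was 1 library. At these depths 1 to 3 reads cannot be told from background, so absence from 3 libraries means below the level of 3 reads.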
